A study of Mus musculus with 2 samples.

Results

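Introns of mouse protein-coding genes held 10478 of the 46200 accessible regions of megakaryocyte-erythroid progenitors (MEP) at a distance of more than 5 kb and at most 50 kb from any protein-coding transcription start site (TSS). These regions were 22.7% of all regions (Wilson 95% interval 22.3 to 23.1). A region was counted when its summit, the point of highest signal, lay inside a protein-coding gene body, in no exon of a protein-coding gene, and within that range of distances. The choice among the regions of the list used the position of the summit. Measured level entered through the list itself and through the summit, which is that of the strongest peak in the region. The assay was ATAC-seq, which reads out open chromatin by where the enzyme Tn5 can place adapters, in 2 libraries labelled biological replicates 1 and 2. Both libraries are MEP, primary cells from adult male C57BL/6J mice of 5 to 6 weeks, with 50000 cells each, and the labels name no treatment and no genetic change. The series holds 1 group, so the comparisons are between classes of region and of gene within these libraries. Both labels name the same donor entry, so whether the libraries came from separate animals is not stated. Only replicate 1 is labelled with an instrument, and its label lists 2 of them.

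Erythroid cells and megakaryocytes both descend from MEP in the bone marrow. Enhancers, the switches that raise transcription of a gene from a distance, often lie in introns, either of the gene they act on or of a neighbour. In these lineages many of them are bound by GATA1 or GATA2, commonly together with TAL1, a basic helix-loop-helix factor that contacts DNA at an E-box beside the GATA site. RUNX1, FLI1 and other ETS factors, KLF1 and MYB act at many of the same elements. CTCF, a zinc finger protein, marks another kind of open site, where chromatin loops and domain borders are set.

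Accessibility at marker promoters was checked against the label. An accessible promoter here has, in the IDR-thresholded list of each library, a region within 1 kb of a TSS; these lists are the stricter ones, based on the irreproducible discovery rate (IDR). Of 8 erythroid markers 7 had an accessible promoter, among them Gata1, Klf1 and Epor. Of 6 megakaryocyte markers 0 did, although Pf4 had a promoter region in the conservative list of both libraries together. The same count was 0 of 6 granulocyte and macrophage markers and 1 of 6 lymphoid markers (Cd3d), with Rag1 added in the conservative list. Itga2b, Gp9, Gp1bb and Vwf, markers of the megakaryocyte branch, had no promoter region in either kind of list.

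The DNA is shown for regions with a composite of E-box and GATA site, since that arrangement was several times as frequent at the summits as in the sequence around them. A composite match is CTG, then 7 or 8 bases, then AGATAA or TGATAA. The 5 regions of highest fold among the 928 with a composite follow, each as 61 bases centred on its match, 5′ to 3′ on the strand that carries it, from mm10 (GRCm38). Capitals mark composite and single GATA matches.
Ncoa7: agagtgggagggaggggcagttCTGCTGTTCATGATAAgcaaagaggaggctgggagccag
Phf21a: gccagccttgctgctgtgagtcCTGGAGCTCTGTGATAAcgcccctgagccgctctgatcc
Shld1: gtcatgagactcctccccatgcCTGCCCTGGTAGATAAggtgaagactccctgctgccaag
Ptpn4: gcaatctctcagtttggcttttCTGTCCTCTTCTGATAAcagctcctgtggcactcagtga
Rufy3: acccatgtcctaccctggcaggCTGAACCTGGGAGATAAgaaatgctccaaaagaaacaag
They lie at chr10:30763419-30763479 (plus strand), chr2:92174509-92174569 (plus), chr2:132695866-132695926 (plus), chr1:119686350-119686410 (minus) and chr5:88627739-88627799 (plus). Bases between triplet and GATA site numbered 7 in Ncoa7 and Shld1 and 8 in the other regions. The centre of the composite lay 3 bp from the summit in Shld1, 13 bp in Rufy3, 32 bp in Ptpn4, 67 bp in Ncoa7 and 86 bp in Phf21a.

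A second set shows the same match in introns of genes that regulate or build blood cells. Nprl3 is the host of the upstream enhancers of alpha-globin. Runx1, Fli1 and Cbfa2t3 encode transcription factors or corepressors, Kit the receptor for stem cell factor, and Epb41 a protein of the red cell membrane skeleton. Ank1 encodes ankyrin, which anchors that skeleton, and Ikzf1 the zinc finger factor Ikaros; both held GATA matches and no composite.
Nprl3: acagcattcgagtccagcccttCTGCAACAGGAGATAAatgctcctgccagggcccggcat
Runx1: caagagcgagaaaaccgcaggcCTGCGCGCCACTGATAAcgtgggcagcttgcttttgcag
Cbfa2t3: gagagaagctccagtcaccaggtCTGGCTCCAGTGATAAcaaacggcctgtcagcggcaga
Kit: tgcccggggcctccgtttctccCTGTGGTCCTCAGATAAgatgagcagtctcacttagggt
Fli1: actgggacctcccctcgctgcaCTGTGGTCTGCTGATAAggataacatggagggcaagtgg
Epb41: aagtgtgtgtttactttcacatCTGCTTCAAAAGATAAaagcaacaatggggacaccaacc
Ank1: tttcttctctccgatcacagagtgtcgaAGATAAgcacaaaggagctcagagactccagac
Ikzf1: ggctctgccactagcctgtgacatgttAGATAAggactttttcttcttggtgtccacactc
Their positions are chr11:32245725-32245785 (plus), chr16:92801719-92801779 (minus), chr8:122685619-122685679 (minus), chr5:75608062-75608122 (plus), chr9:32519738-32519798 (minus), chr4:132040413-132040473 (plus), chr8:23078490-23078550 (minus) and chr11:11729397-11729457 (plus). Each is the strongest region with a composite in that gene or, for Ank1 and Ikzf1, the strongest region.

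The intronic regions were of moderate size and strength. Width had a median of 481 bp (quartiles 342 and 668, range 150 to 2922). The fold of a region is the authors' ratio at its strongest peak, relative to a level that was not given, and serves here within 1 list only. It had a median of 6.37 (quartiles 5.10 and 7.96, range 1.70 to 26.0), and the median −log10 p was 32.4. Together the regions covered 5.56 Mb. The longer list of replicate 1 overlapped 9860 of them and that of replicate 2 overlapped 10029, with 9561 (91.2%) in both and 150 in neither. Among those in both, fold had a Spearman correlation of 0.87 between libraries, as a description over regions of the same 2 libraries. Median fold was 5.72 in replicate 1 and 6.25 in replicate 2. These lists were not scaled to each other, so that gap is not a difference in accessibility. The number of reads is unknown. Shares carry intervals for counting error only, and p-values over regions describe these libraries, not variation among animals. Regions in 1 gene share their surroundings and are not independent.

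The range of distance has 2 edges. The nearest region kept at the lower edge lay 5004 bp from a TSS and the nearest one left out 4997 bp. Intronic regions at 5 to 6 kb numbered 607 with a median fold of 5.95, and those at 4 to 5 kb numbered 567 with a median of 5.54. At the upper edge 76 regions at 49 to 50 kb had a median fold of 6.52, and 67 regions at 50 to 51 kb had 6.64.

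Intronic regions recurred about as often as intergenic regions at the same distance, and were slightly weaker. Recurrence here means presence in the stricter, IDR-thresholded lists of both libraries. The longer lists of both libraries held 91.2% of intronic and 91.1% of intergenic regions. The comparison class was the 8535 regions outside gene bodies, more than 5 kb and at most 50 kb from a TSS. Both IDR-thresholded lists overlapped 39.2% of intronic regions (4112 of 10478, interval 38.3 to 40.2) and 39.4% of intergenic regions (3366 of 8535, 38.4 to 40.5). The difference was -0.193 percentage points (95% interval -1.59 to 1.20), with an odds ratio of 0.992 (two-sided Fisher's exact test, adjusted p = 0.788 over the 4 class comparisons). Over all regions of the list the share was 48.6%. Mean log2 fold was 2.68 ± 0.46 in intronic and 2.73 ± 0.48 in intergenic regions (SD over regions), a difference of -0.05 (95% interval -0.06 to -0.04, permutation test, adjusted p = 2e-05, the smallest these resamples and adjustment can give). That is a ratio of 0.966, small beside the spread among regions. Width did not differ detectably, with a mean log2 width of 8.91 in each class and a difference of -0.00262 (interval -0.0216 to 0.0163, permutation test, adjusted p = 0.788). GC content within 100 bp of the summit averaged 49.9% in intronic and 51.2% in intergenic regions, a difference of -1.31 percentage points (interval -1.49 to -1.13, permutation test, adjusted p = 2e-05).

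Presence in both IDR-thresholded lists followed fold. Of intronic regions in the lowest quintile of all regions by fold 4.54% were in both lists, and of intergenic regions in that quintile 4.96%. In the middle quintile the shares were 35.3% of intronic and 29.8% of intergenic regions, and in the highest quintile 94.8% of intronic and 92.5% of intergenic regions. Among regions of the upper 50% by fold, intronic ones recurred more often, at 69.7% against 66.9% (odds ratio 1.14, Fisher's exact test, adjusted p = 0.00684), whereas in the authors' longer replicated list they recurred less often, at 19.2% against 20.6% (odds ratio 0.915, adjusted p = 0.000671). The order of the classes differed between these lists.

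**Figure D1:**
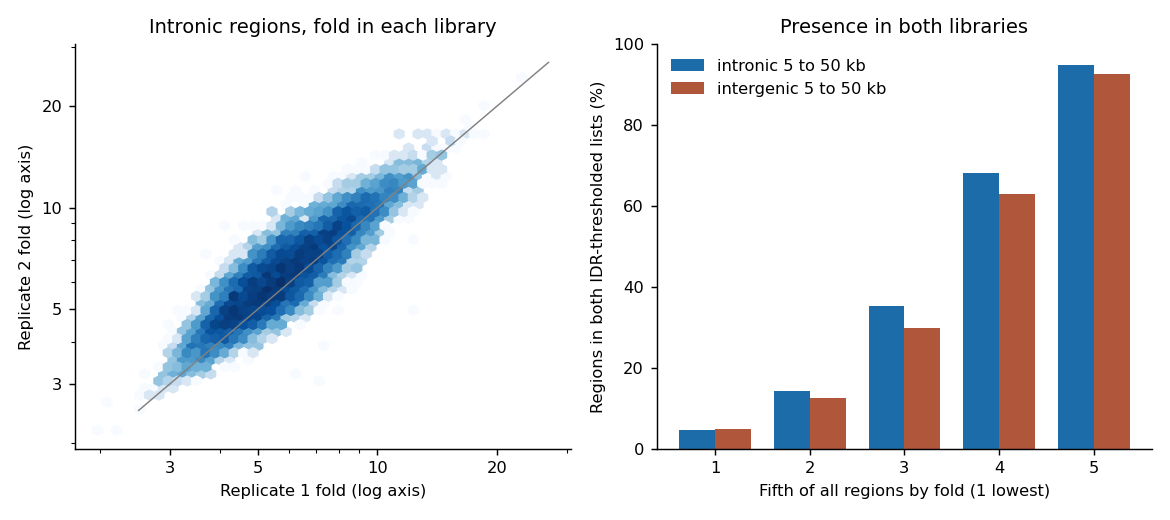
Left, fold of each intronic region in replicate 1 (x axis) and replicate 2 (y axis), both log axes, for the 9561 regions in the longer lists of both libraries; darker cells hold more regions and the line marks equal fold. Right, percent of intronic and intergenic regions in both IDR-thresholded lists by quintile of all regions by fold, reaching 94.8% of intronic and 92.5% of intergenic regions in the highest quintile.

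Nearly as many intronic regions held a GATA site at the summit as did not. A match to AGATAA or TGATAA on either strand lay within 100 bp of the summit in 47.9% of them (5023 of 10478) and in 19.4% of windows of the same length centred 500 bp away. Among all 46200 regions the share was 33.3%, and among promoter regions 9.99%. The composite was present in 8.86% of intronic regions and 1.01% of flanks, and in 6.41% of all regions. CTCF matches were in 11.02% of intronic regions, against 0.315% of flanks and 9.62% of all regions. Exact McNemar tests, each pairing a region with its own flank, put both GATA and CTCF below the smallest p kept (1e-300, adjusted p = 9e-300), and the composite at an adjusted p of 9.63e-169.

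Of 18 motifs searched on both strands, 12 were more frequent at the summit than in the flank at an adjusted p below 0.05, and 2 were less frequent. KLF matches (CCACACCC or CCACGCCC or CCCCACCC or CCCCGCCC), the sites of KLF1 and relatives, were in 13.7% of regions and 6.46% of flanks. RUNX matches (TGTGGT) were in 22.7% and 16.1%, and ETS matches (AGGAAGT or CGGAAGT) in 8.12% and 5.78%. The match for NFE2, a factor of megakaryocytes and erythroid cells, holds the AP-1 letters (TGAGTCA or TGACTCA) and was in 1.08% of regions and 0.210% of flanks. MYB matches (CAACGG or CAACTG or TAACGG or TAACTG) were in 27.2% and 21.3%, and E-boxes of the form CAGNTG in 51.4% and 39.9%. AP-1 (5.80% and 3.36%), PU.1 (GAGGAAGT, 2.35% and 1.33%), which contains an ETS match, and REST (8 regions and 0 flanks) passed in the same direction. STAT matches (TTCNNNGAA) fell to 4.39% of regions, against 6.13% of flanks, and IRF matches to 1.76%, against 2.73%. C/EBP (TTGCNNAA), MEF2, the octamer ATGCAAAT and the liver motif HNF1 did not pass the test. These shares were not adjusted for base composition, whose part in them was not tested.

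The matches were centred on the summit. In the 25 bp bins beside the summit 10.7% of intronic regions held a GATA match on average, against 2.79% per bin in the outermost bins, a ratio of 3.85. The same ratio was 13.3 for the composite and 140 for CTCF. Intronic regions with 2 GATA matches made up 11.3% of members, against 2.42% of flanks, and those with 3 or more 1.73%, against 0.220%.

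**Figure D2:**
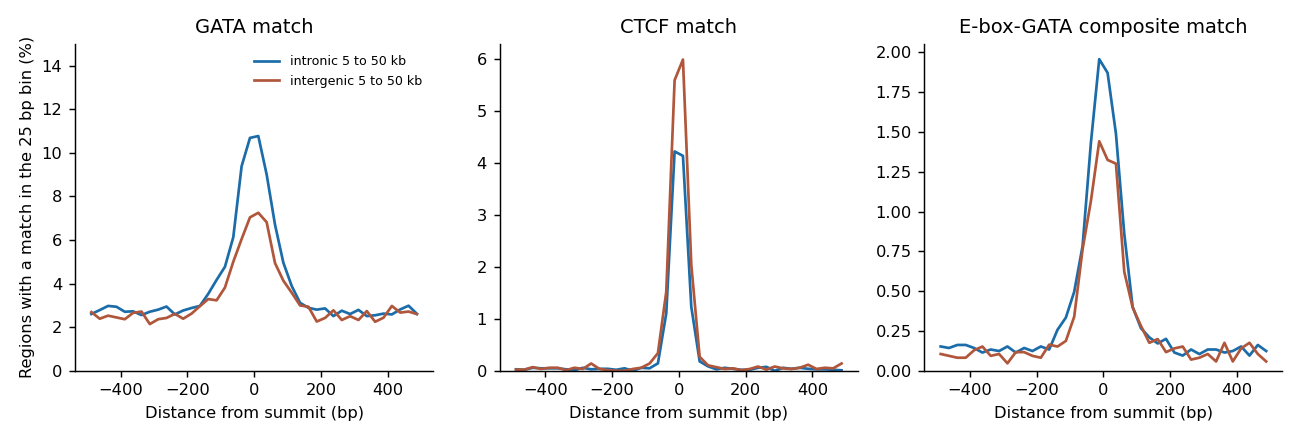
Percent of regions with a match (y axis) in 25 bp bins by distance from the summit in bp (x axis), for intronic and intergenic regions 5 to 50 kb from a TSS. Within 25 bp of the summit GATA matches averaged 10.7% of intronic and 7.15% of intergenic regions per bin, and CTCF matches 4.18% and 5.80%.

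Pairs of E-box triplet and GATA site were most frequent at a spacing of 8 bases, in 1 orientation. With CTG before the GATA match, 616 pairs in intronic regions had 8 bases between them, 337 had 7 and 311 had 9. The 19 spacings from 0 to 20 other than 7 and 8 held between 145 and 311 pairs with a median of 180, and the highest of these was the spacing of 9. In the flanks the spacings of 7, 8 and 9 held 52, 54 and 37 pairs, among 27 to 56 at the others. With the triplet after the GATA match (CAG on the same strand), 199, 202 and 208 pairs had 7, 8 and 9 bases, within the range of 177 to 243 at the other spacings. The composite searched here allows 7 or 8 bases, so pairs with 9 are outside its count.

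**Figure D3:**
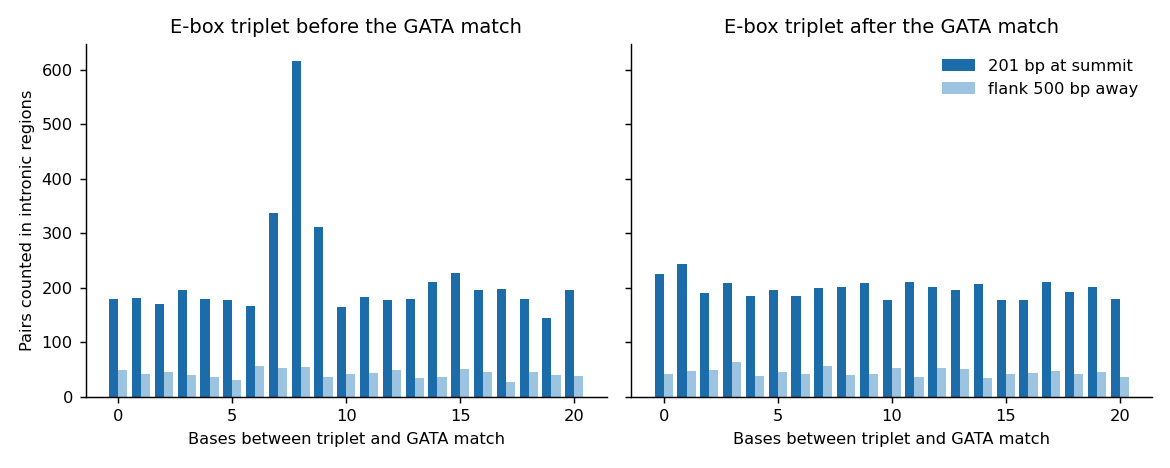
Number of pairs of E-box triplet and GATA match (y axis) in intronic regions by the number of bases between them (x axis), with the triplet before (left) or after (right) the GATA match, within 100 bp of the summit and in flanks of the same length 500 bp away. The spacings of 7, 8 and 9 bases with the triplet before hold 337, 616 and 311 pairs.

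Intronic regions carried GATA sites more often, and CTCF sites less often, than intergenic regions at the same distance. GATA matches were in 47.9% of intronic and 35.0% of intergenic regions (odds ratio 1.71, two-sided Fisher's exact test, adjusted p = 9.38e-72 over 18 motifs). CTCF matches were in 11.02% of intronic and 15.8% of intergenic regions (odds ratio 0.661, Fisher's exact test, adjusted p = 5.99e-21). The composite (8.86% and 6.97%, odds ratio 1.30, Fisher's exact test, adjusted p = 1.17e-05), RUNX (22.7% and 20.7%, 1.12, 0.00418) and MYB (27.2% and 24.9%, 1.13, 0.00142) were also more frequent in introns, and STAT (4.39% and 5.17%, 0.843, 0.0404) less so. Every composite holds a GATA match, so its higher share is not separate from that of GATA. Among regions with a GATA match, 928 of 5023 intronic and 595 of 2984 intergenic ones held the composite, without a test. The other 12 motifs did not pass the test, KLF (13.7% and 14.7%, Fisher's exact test, adjusted p = 0.109) and ETS (8.12% and 8.41%, 0.569) included. Intronic regions had the lower GC content given above; within GC tertiles of both classes together 7 motifs passed. Over 11 settings with intergenic regions as the other class, the GATA odds ratio ranged from 1.51 to 1.91 and passed in all 11, and that of CTCF ranged from 0.594 to 0.744 and passed in all 10 that could test it. RUNX and MYB each passed in 9 of the 11, and not within 50 bp of the summit or with the strongest region per gene, and STAT passed in 4.

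Intronic regions farther from a TSS held these sites at nearby shares. Of the 3033 intronic regions beyond 50 kb, 51.0% held a GATA match and 10.4% a CTCF match, and 0 of 18 motifs passed an adjusted p of 0.05 in Fisher's exact tests between nearer and farther introns. The GATA odds ratio of nearer over farther introns was 0.886 (Fisher's exact test, adjusted p = 0.0547), so a lower share in the nearer ones is not shown to be absent. Within the range itself GATA matches were in 49.4% of intronic and 34.2% of intergenic regions at 5 to 10 kb, and in 49.0% and 37.7% at 40 to 50 kb.

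**Figure D4:**
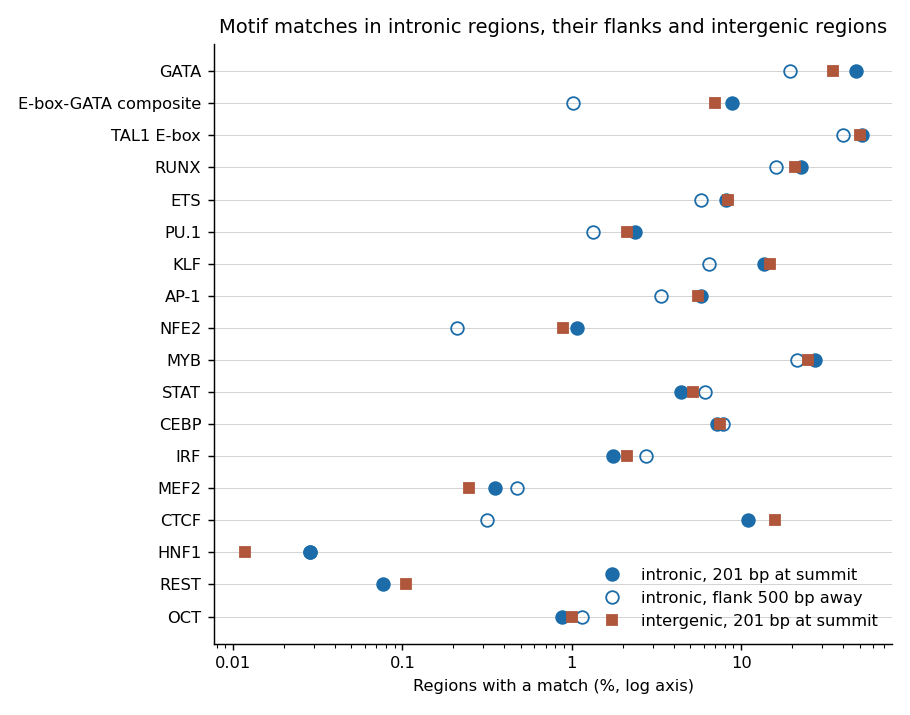
Percent of regions with a match (x axis, log) for each of 18 motifs, within 100 bp of the summit of intronic regions (filled circles), in their flanks 500 bp away (open circles) and at the summit of intergenic regions (squares). The flank share of REST is 0 and is not drawn, and that of HNF1 lies under its filled circle.

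GATA and CTCF sites rarely shared an intronic region. Of the 5023 intronic regions with a GATA match 3.36% also held a CTCF match (169 regions), against 18.1% of those without a GATA match. In the flanks the shares were 0.345% and 0.308%. RUNX matches were in 23.0% of regions with and 22.4% of those without a GATA match, KLF matches in 11.9% and 15.4%, and MYB matches in 29.7% and 24.9%. The odds ratio for KLF was 0.741 at the summits and 0.613 in the flanks, and that for MYB was 1.27 in both. These shares are descriptions with no test.

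Regions with a GATA match were a little stronger and recurred more often. Mean log2 fold was 2.71 ± 0.47 with a match (n = 5023) and 2.66 ± 0.45 without (n = 5455; SD over regions), a difference of 0.05 (permutation test, p = 1e-05, the smallest the resamples can give). In the list of replicate 2 alone that difference was 0.02 and did not pass (permutation test, p = 0.0807), whereas in that of replicate 1 alone it was 0.05 (p = 1e-05). Both IDR-thresholded lists overlapped 46.2% of regions with a match (2319 of 5023) and 32.9% of those without (1793 of 5455; odds ratio 1.75, two-sided Fisher's exact test, p = 4.64e-44, a comparison added after the values were seen). Width moved with this, at a median of 544 bp with and 433 bp without a match, and its part in the recurrence was not tested. Regions with the composite were at a median fold of 6.99 and a median width of 595 bp, and 56.9% of them were in both lists. Regions with a CTCF match were narrower, at 404 bp against 496 bp without, and 28.4% against 40.6% were in both lists although their median fold was 6.53 against 6.34.

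The GATA matches of introns leaned slightly to the antisense strand of the host gene. Among regions with 1 host gene and matches on 1 strand only, 47.3% had them on the sense strand (1992 of 4215, Wilson interval 45.8 to 48.8, two-sided exact binomial test, p = 0.000395). The flanks of the same introns gave 48.2% (894 of 1853, 46.0 to 50.5), and the intervals overlap. On the sense strand A made up 23.7% and T 26.5% of the bases at the summits, and 26.0% and 29.0% in the flanks. The part of this base composition in the strand share was not tested, and the share did not pass the test in replicate 2 alone (48.02%, exact binomial test, p = 0.0522).

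GATA sites were more frequent, and CTCF sites less frequent, in intron 1 than in later introns. Introns were numbered from the 5′ end of the longest protein-coding transcript, for the 10155 regions with a single host gene. Intron 1 held 2859 regions, intron 2 held 1590 and intron 3 or later 5399. GATA matches were in 53.9% of regions in intron 1, 51.9% in intron 2 and 44.0% in intron 3 or later. CTCF matches ran the other way, at 5.49%, 8.62% and 14.5%. Between intron 1 and introns from the third on, the odds ratio was 1.48 for GATA (two-sided Fisher's exact test, p = 2.15e-17) and 0.343 for CTCF (p = 3.85e-38), comparisons added after the values were seen. Without regions that hold a CTCF match the GATA odds ratio was 1.32 (Fisher's exact test, p = 1.05e-08). GC content was 49.8%, 49.6% and 49.9% over the 3 groups. Median distance to a TSS was 13.6 kb in intron 1 and 19.2 kb in intron 3 or later, and the part of distance in these differences was not tested. KLF matches also fell off, at 15.7% in intron 1 and 12.2% in intron 3 or later, without a test. Density was nearly level, at 23.6 regions per Mb of eligible sequence in intron 1 and 21.9 in intron 3 or later. Eligible sequence is intron sequence in the same range of distance.

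**Figure D5:**
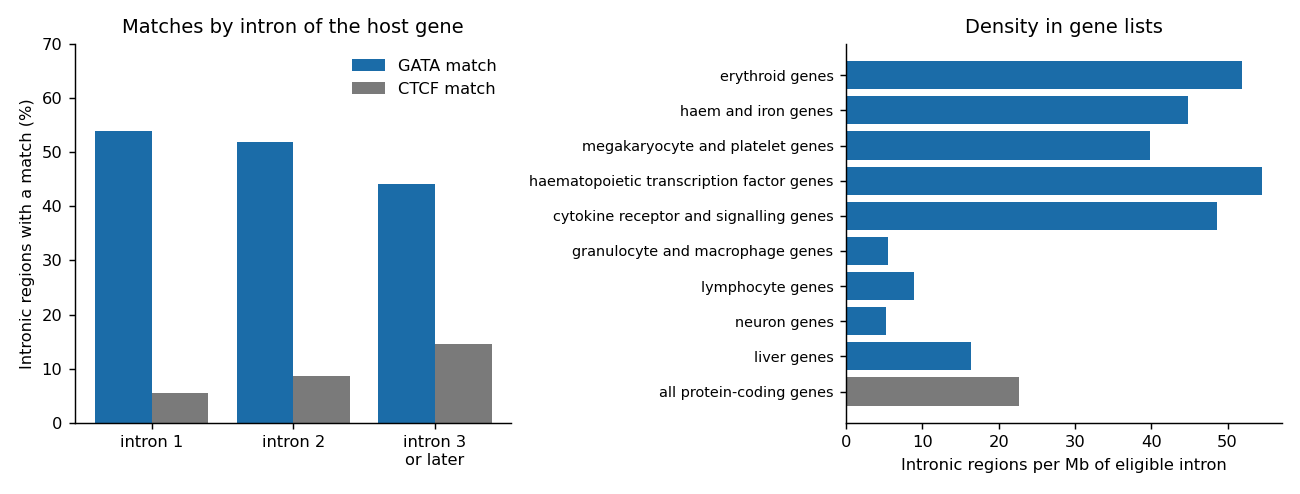
Left, percent of intronic regions with a GATA or CTCF match (y axis) by intron of the host gene; GATA is at 53.9% and CTCF at 5.49% in intron 1, against 44.0% and 14.5% in intron 3 or later. Right, intronic regions per Mb of eligible intron (x axis) in 9 gene lists and in all protein-coding genes, where haematopoietic transcription factor genes reach 54.5 and all genes 22.6.

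Eligible intron sequence came to 463 Mb, and 17.5% of the ungapped genome, so that the regions lay at 22.6 per Mb. Density fell with distance, at 25.9 per Mb at 5 to 10 kb, 19.4 at 30 to 40 kb and 17.0 at 40 to 50 kb. Median fold was 6.19, 6.54 and 6.48 in those bins. Autosomes held 21.1 to 27.1 regions per Mb with a median of 22.8. The X chromosome held 10.3 per Mb with a median fold of 6.93, and the Y chromosome 0 regions. The mice are male, with 1 X chromosome per cell, and its part in the lower density was not tested. Summits in repeat (soft-masked) sequence numbered 1000, or 9.54%, against 29.9% of eligible intron sequence. A match to mitochondrial DNA of 100 bp or more, searched for within 100 bp of the summit, was found in 6 regions.

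Most regions lay in an intron of the gene whose TSS was nearest, but 18.2% (1902) had the nearest TSS in another gene. The summit stood at a median of 47.7% of the host gene's length from its start (quartiles 24.6% and 72.8%), in hosts with a median length of 84.9 kb. A TSS of a long noncoding RNA gene lay within 1 kb of 166 summits, and a TSS of a noncoding transcript of a protein-coding gene within 1 kb of 500. Neighbouring regions in 1 host were at a median of 9.71 kb from each other.

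Genes that held an intronic region had an accessible promoter more often than genes of like intron length that held none. Of 21938 protein-coding gene entries 14977 had eligible intron sequence, and 5150 of these (34.4%) held at least 1 region. Of the holders 2733 had 1 region, 1986 had 2 to 4 and 431 had 5 or more. An accessible promoter was found in 65.2% of holders (3358 of 5150) and 46.4% of other genes (4564 of 9827), with an odds ratio of 2.16 (two-sided Fisher's exact test, p = 5.56e-107). Over all genes with eligible sequence the share was 52.9%. Holders had more room, with a median of 40.95 kb of eligible intron against 10.9 kb. Within quintiles by eligible length the odds ratio was 1.72, 1.44, 1.90, 3.12 and 3.96 in order of rising length, with the highest adjusted p at 0.000632. In the quintile of longest introns 64.4% of holders and 31.4% of other genes had an accessible promoter.

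The hosts with most regions were long genes. Gm20388, annotated over 4.43 Mb of chromosome 8, held 97, Fgfr2, a fibroblast growth factor receptor gene annotated over 2.96 Mb, held 35 and Gm37240 held 20. These entries span other genes: they were the only host of 41, 9 and 5 regions, and the regions of Zfpm1 and Cbfa2t3 counted below lie inside the Gm20388 entry as well. Fry and Rere, an atrophin-family corepressor gene, held 17 each, Pde4d, a cyclic AMP phosphodiesterase gene, 16, and Akap13, Foxp1 and Macf1 15 each. Prkag2, a subunit gene of the AMP-activated kinase, held 14. Per 100 kb of eligible intron these came to 7.61 in Akap13, 7.22 in Macf1, which encodes a cytoskeletal linker, 7.17 in Fry, 6.78 in Rere, 3.82 in Foxp1 and 2.31 in Pde4d. The strongest region of Macf1 was at 14.3-fold in replicate 1 and 12.2-fold in replicate 2, and that of Rere at 11.7-fold and 12.9-fold. In Foxp1, a forkhead factor gene, 11 of the 15 regions held a GATA match, beside 47.9% of all intronic regions. The counts were 48 of 97 in Gm20388, 17 of 35 in Fgfr2, 13 of 20 in Gm37240 and 9 of 15 in Macf1. Fry and Rere had 8 of 17 each, Pde4d 8 of 16, Akap13 7 of 15 and Prkag2 7 of 14.

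Regions per Mb of eligible intron were above the value of all genes in the 5 lists of erythroid, haem and iron, megakaryocyte, transcription factor and cytokine signalling genes, and below it in the other 4 lists. All protein-coding genes gave 22.6 regions per Mb of eligible intron, 34.4% of genes with eligible sequence held a region, and the median was 0 regions. The lists are described without a test, since they were drawn up with earlier results of these data known. Haematopoietic transcription factor genes reached 54.5 per Mb, with a region in 15 of 22 genes with eligible sequence and a median of 2.5. Erythroid genes reached 51.8 (11 of 20, median 1), cytokine receptor and signalling genes 48.7 (14 of 21, median 1), haem and iron genes 44.8 (7 of 18, median 0) and megakaryocyte and platelet genes 39.9 (8 of 17, median 0). Liver genes were at 16.4 (4 of 20), lymphocyte genes at 8.94 (2 of 18), granulocyte and macrophage genes at 5.46 (1 of 9) and neuron genes at 5.23 (7 of 24). A GATA match was in 53 of 74 regions of the transcription factor list, 22 of 37 of the cytokine list, 16 of 31 of the erythroid list, 11 of 18 of the megakaryocyte list, 7 of 13 of the haem and iron list, 4 of 16 of the neuron list and 0 of 5 of the liver list. In all genes it was in 47.9% of region and host pairs.

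Among the transcription factor genes Nfia held most regions, 10, with GATA matches in 6, and its strongest was at 10.2-fold in replicate 1 and 10.02-fold in replicate 2. Erg, an ETS factor gene, and Runx1 held 9 each, with GATA matches in 7 of either. All 9 Runx1 regions lay in intron 2 of 7. The strongest stood at chr16:92801470-92802260, 24.0 kb from the Runx1 TSS, with the composite printed above, at 8.26-fold in replicate 1 and 7.81-fold in replicate 2. Folds of the Runx1 regions ran from 3.79 to 8.26 in replicate 1, where 8 were in the longer list, and from 3.97 to 7.91 in replicate 2, where all 9 were. The ranges of the libraries overlapped, and the highest Runx1 region of replicate 2 was another one, at 6.69-fold in replicate 1 and 7.91-fold in replicate 2. Erg had no accessible promoter in both libraries, whereas 3 of its 9 regions were in both IDR-thresholded lists. The highest Erg region of replicate 1 was at 6.33-fold there and 5.51-fold in replicate 2. That of replicate 2 was another one, at 5.06-fold in replicate 1 and 6.24-fold in replicate 2. It was in the longer lists only.

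Among erythroid genes Ank1 held 5 regions and Epb41 and Nprl3 4 each. The strongest Epb41 region, in intron 1 of 20 at chr4:132040298-132040780, was at 9.16-fold in replicate 1 and 9.94-fold in replicate 2. The strongest Nprl3 region, in intron 6 of 12 at chr11:32245332-32246085, was at 8.08-fold and 9.02-fold. Its nearest TSS, 19.3 kb away, was that of Mpg, a DNA repair gene on the other side. Another Nprl3 region, in intron 4, was at 7.72-fold in replicate 1 and 7.50-fold in replicate 2 and held a GATA and an AP-1 match. The fourth, of 189 bp and 3.33-fold in the conservative list, was in the longer list of neither library. In Ank1 the strongest region was at 7.002-fold in replicate 1 and 7.43-fold in replicate 2.

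Among haem and iron genes Slc25a37, which encodes the mitochondrial iron importer mitoferrin, and Steap3, a ferrireductase gene, held 3 regions each and Glrx5, which acts in iron-sulphur cluster assembly, 2. The strongest Slc25a37 region, in intron 1 of 3, was at 8.31-fold in replicate 1 and 10.8-fold in replicate 2 and held a KLF match and no GATA match. The strongest regions of Steap3 (7.86-fold and 7.26-fold) and Glrx5 (5.38-fold and 5.48-fold) both held the composite. Among megakaryocyte and platelet genes Itgb3, a platelet integrin gene, Rab27b, a granule secretion gene, and Vwf, the von Willebrand factor gene, held 3 each. Vwf and Itgb3 had no accessible promoter. The strongest Vwf region was in both IDR-thresholded lists, at 10.3-fold in replicate 1 and 11.2-fold in replicate 2. That of Itgb3 was in neither IDR-thresholded list, and in the longer lists it was at 8.32-fold and 6.56-fold. The strongest Rab27b region, with the composite, was at 10.7-fold and 11.8-fold.

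Among cytokine receptor and signalling genes Smad3, a transforming growth factor beta effector, held 8 regions, Inpp5d, the SHIP1 phosphatase gene, 6 and Cblb, a ubiquitin ligase gene, 5. Their strongest regions were at 6.17-fold in replicate 1 and 5.06-fold in replicate 2 for Smad3, 12.7-fold and 11.3-fold for Inpp5d, and 8.99-fold and 11.1-fold for Cblb. None of these strongest regions held a GATA match. In the granulocyte and macrophage list Spi1, which encodes PU.1, was the only gene with a region. That region, in intron 2 of 3 and with its nearest TSS, 9.77 kb away, in Mybpc3, was at 3.89-fold and 5.31-fold and held the composite. In the lymphocyte list Tcf7, a T cell factor gene, held 2 weak regions with a highest fold of 4.67 and Tbx21 1, with a CTCF match. In the neuron list Rbfox3 held 4, Cntnap2 3 and Camk2a 2, and the strongest of Cntnap2 and Camk2a carried CTCF matches. In the liver list Hnf4a held 2 and Apob 1.

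Of 16 genes chosen for known intronic enhancers in blood cells, 13 held 62 regions, beside 34.4% of all genes with eligible sequence that held any. That share was 45.7% and 66.2% in quintiles 4 and 5 by eligible intron length, and the 16 genes were not matched for length. GATA matches were in 44 of the 62 (71.0%), against 47.9% of all intronic regions. Composites were in 8 of the 62, against 928 of all 10478 intronic regions (8.86%). The choice of these genes makes them no independent sample. Gata2, Tal1 and Lmo2 held 0, with 1.60, 3.68 and 6.86 kb of eligible intron. Zfpm1, which encodes the GATA1 partner FOG1, held 7 regions of 2.55-fold to 5.03-fold in replicate 1 and 2.97-fold to 5.37-fold in replicate 2, 5 of them with a GATA match. Cbfa2t3, which encodes the TAL1 complex corepressor ETO2, held 5, all with a GATA match and 2 with the composite, and its strongest, printed above, was at 7.61-fold and 7.27-fold. Gata2, Cbfa2t3, Fli1, Erg and Mecom had no promoter accessible in both libraries. Kit held 3. The strongest, in intron 7 of 20 and 49.5 kb from the Kit TSS, was at 7.98-fold and 8.54-fold and matched none of the 18 motifs, whereas the one in intron 2 with the composite printed above was at 6.38-fold and 6.36-fold. Fli1 held 5, all in intron 1, from 4.64-fold to 6.28-fold in replicate 1 and 4.42-fold to 6.54-fold in replicate 2. Ikzf1 held 6, all in intron 3, from 3.29-fold to 6.25-fold and 3.23-fold to 6.12-fold. Mecom, which encodes the stem cell regulator EVI1, held 2, both with a GATA match and both in intron 1, the stronger at 8.18-fold and 9.12-fold. Meis1, a homeobox gene, held 2, the stronger at 4.77-fold and 5.87-fold. Tfr2, the transferrin receptor 2 gene, held 1, in the longer list of replicate 2 only, at 4.36-fold.

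The 10 regions with the highest mean −log10 p over both libraries held GATA matches in 3 cases, the composite in 1 and CTCF in 0. Over all intronic regions the shares were 47.9%, 8.86% and 11.02%, and 10 regions are too few to set against them. Of the 1449 intronic regions in the highest quintile by fold, 55.8% held a GATA match, 13.6% the composite and 7.52% a CTCF match. RUNX, ETS, KLF or MYB matches were found in others of the 10. The first, of 267 bp in intron 2 of Gnb1l on chromosome 16, was at 23.1-fold in replicate 1 and 24.4-fold in replicate 2, with the highest fold of all intronic regions in the conservative list (26.0). It was followed by regions in Uggt2 (13.4-fold and 13.1-fold), Mrps27 (16.8-fold and 17.8-fold), a mitochondrial ribosome gene, Apool (18.7-fold and 20.5-fold) and Shld1 (14.4-fold and 14.5-fold), the last with the composite printed above. The region in Myo3a, the widest of all members at 2922 bp, was at 5.44-fold and 5.27-fold and matched mitochondrial DNA around its summit. How close that match is was not read, and whether reads from mitochondria add to this region was not tested. Kantr on the X chromosome (17.3-fold in each library), Tbk1, a kinase of innate immunity (11.99-fold and 13.3-fold), a region shared by Arhgdib and Pde6h (11.9-fold and 13.3-fold) and 3300002I08Rik (12.9-fold and 13.0-fold) completed the 10.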

How the data were processed

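Peak lists of ATAC-seq on 2 libraries of mouse MEP were used as deposited, on mm10 per the read-me texts deposited with them. Aligner, peak caller and versions were not given in the sources used here. Each list gives a region's position, its summit, a fold and a −log10 p, both as deposited by the authors; the ratio (fold) and the −log10 p are read from the column layout of the narrowPeak format, and what the fold is relative to was not given. The conservative IDR list of both libraries together set the regions. The IDR-thresholded and the longer pseudoreplicated lists of each library gave presence and fold per library. Depth is unknown.

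Peaks that share a region were merged and the strongest kept its summit. Genes and TSS are from GENCODE M21 (21938 protein-coding gene entries) and sequence is from mm10. Motifs were exact letter matches on both strands within 100 bp of the summit, against 1 window of the same length 500 bp away. CTCF, NFE2, IRF, MEF2, HNF1 and REST were searched by patterns of 10 or more letters and are named only. Eligible intron was scanned on a grid of 20 bp. Tests were two-sided: Fisher's exact, exact McNemar and exact binomial tests, and permutation tests with 100000 resamples, with Benjamini-Hochberg adjustment within each family. Wilson 95% intervals and p-values cover counting error and these libraries only. The code was tested on simulated data.

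The regions, gene lists and tests were chosen with earlier results of these data known. The genes named are the 10 regions with highest mean −log10 p, the 10 hosts with most regions, the 3 genes with most regions in each of 9 lists (220 genes, all matched), the 5 composites of highest fold, and 16 set genes. Values of 1 gene that this rule names are not reported here. The comparisons of GATA and CTCF by intron, of recurrence by GATA site, and the fits without CTCF regions were added after the data were seen. Python 3.11.15, NumPy 2.4.6, SciPy 1.17.1, pandas 2.3.3, statsmodels 0.14.6, pysam 0.24.0, samtools 1.23.1 and BLAST 2.17.0 (mitochondrial matches) were used.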

Additional observations from a re-analysis of the deposited data

How the results depend on the processing

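The series has 1 group of 2 libraries and unknown depth, so nothing here measures variation among animals, and each library alone stands in for leaving the other out. No paired analysis was possible because there is only 1 group. With 1 library left out, the share of intronic regions was 19.2% to 19.8%. It was 25.5% in the longer replicated list, 20.6% in the upper 50% by fold and 21% with TSS of all transcripts. For recurrence neither library was left out: regions came from 1 library's IDR-thresholded list and presence was read in the other's. The recurrence odds ratio was then 1.05 to 1.07. In that setting 81.9% of intronic regions of replicate 1 and 74.3% of those of replicate 2 recurred, shares not comparable with that of the conservative list. The odds ratio was 0.915 in the longer list and 1.14 in the upper 50% by fold. It was 1.00 (1) with 50% of a region covered and 1.04 against intronic regions beyond 50 kb. The width difference (log2) was -0.0109 to 0.00531 with 1 library left out, -0.0244 in the longer list and 0.00965 in the upper 50% by fold. Against intronic regions beyond 50 kb the GC difference was 0.875 points, the number of motifs that differed was 0, and the odds ratio was 0.886 for GATA, 0.827 for the composite, 0.968 for RUNX and 1.07 for CTCF. With the strongest region per gene 3 motifs differed in place of 6, and the share of GATA matches on the sense strand was 47.9% (exact binomial test, p = 0.0687). That share was 47.6% to 48.0% (48) with 1 library left out. The fold difference by GATA site was 0.0181 to 0.052 with 1 library left out, the lower value without replicate 1. The cause of these shifts was not tested. Among alternatives for the values and counts that answer a comparison, 87 kept direction and side of the threshold, 8 reversed, 5 lost the call, 2 gained one, and 5 values with no test moved.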

Other observations

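Most intronic regions held at least 1 of the 18 motifs, 9524 of 10478 (90.9%), and 4469 (42.7%) held neither a GATA nor a CTCF match. Regions with 0, 1, 2 and 3 or more GATA matches had a median width of 433, 527, 592 and 620 bp, and 32.9%, 44.1%, 51.4% and 54.7% of them were in both IDR-thresholded lists. Their median fold was 6.24, 6.40, 6.73 and 6.63.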
